A study of Homo sapiens with 10 samples.

Results

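The Kruppel-like factors studied here were KLF2, KLF3, KLF4, KLF5, KLF6, KLF9, KLF10, KLF11, KLF13 and KLF16. These 10 genes were taken by symbol from the 58050 Ensembl gene identifiers of the table, in which 18 genes carry a KLF symbol. They were selected on RNA levels, with the TPM values of this same contrast already known. Their RNA was compared between 5 cultures of HCT116-WT cells and 5 cultures of HCT116-CD276KO cells. HCT116 is a human colorectal carcinoma cell line. The HCT116-CD276KO cells were edited with Cas9 and a guide RNA against CD276 (also called B7-H3, a surface protein of the B7 immune checkpoint family) and then sorted, and all their cultures came from 1 single cell clone. A scrambled guide RNA is named as the editing control, but the labels do not state whether the HCT116-WT cultures received it. Neither group was treated further. The stated differences between them are the editing of this gene, the sorting and cloning of the edited cells, and separate culture flasks. As the knockout is 1 clone kept in separate flasks, loss of CD276, other differences of that clone and the flasks cannot be told apart.

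Kruppel-like factors are transcription factors that bind GC-rich DNA and CACCC boxes through zinc fingers at their C-terminal end, and they differ mainly in the N-terminal part that recruits activators or repressors. In the intestinal epithelium KLF4 marks non-dividing, differentiating cells, while KLF5 is made in the dividing cells of the crypt. KLF10 and KLF11 are early genes of the TGF-beta response, KLF2 is known for quiescence of endothelial cells and T cells, and KLF3 is a repressor that works through CtBP proteins.

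The values are TPM, which are corrected for transcript length and scaled to the same total in each library, so that levels can be compared between genes. The labels give an average of 40000000 reads per library with a coefficient of variation of 11.1%, but a TPM table does not keep the number of reads behind each value. The libraries had between 22109 and 22948 genes above 0 TPM. CD276 was at 38.08 to 53.61 TPM in the HCT116-WT cultures and at 4.4 to 7.42 TPM in the HCT116-CD276KO cultures. Of 9 epithelial and colonic marker genes, EPCAM, KRT8, KRT18, CDH1 and CDX2 were present, whereas KRT20, VIL1, CDX1 and LGALS4 stayed under 1 TPM in every culture. The summed level of these 9 markers was 3007 to 3474 TPM in HCT116-WT and 2321 to 2622 TPM in HCT116-CD276KO cultures. Of 5 leukocyte markers 4 stayed under 1 TPM, PTPRC among them, and the list summed to 9.38 to 14.99 TPM in HCT116-WT and 6.36 to 13.04 TPM in HCT116-CD276KO, nearly all of it CD68. Of 6 endothelial and fibroblast markers 5 stayed under 1 TPM, and the list summed to 6.18 to 9.46 TPM and 4.62 to 7.75 TPM, nearly all of it COL1A1. The libraries differed in composition within the groups and, for the length trend, partly between them. The deviation of a library from the mean followed GC content most in HCT116-WT replicate 3 and HCT116-CD276KO replicate 2, with Spearman correlations of 0.607 and 0.484 over genes. It followed transcript length most negatively in HCT116-CD276KO replicates 2 and 3, at -0.517 and -0.489. The correlation with length was 0.425, 0.39 and 0.41 in HCT116-WT replicates 1, 2 and 5, and -0.094 and 0.046 in replicates 3 and 4. In HCT116-CD276KO replicates 1, 4 and 5 it was 0.262, -0.071 and 0.316. The length trend was thus not spread evenly over the groups.

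All 10 factors were expressed, with levels that spanned more than a factor of 10. In HCT116-WT cultures the mean levels ran from KLF6 at 73.2 ± 3.37 TPM (SD, n = 5) through KLF5, KLF10, KLF16, KLF4, KLF2, KLF13 and KLF3 down to KLF9 at 4.71 ± 0.332 TPM and KLF11 at 4.52 ± 0.262 TPM. Neighbours in this order had overlapping ranges, except at 3 steps: KLF16 lay above KLF4, KLF13 above KLF3 and KLF3 above KLF9 in every pair of cultures. In the HCT116-CD276KO cultures KLF10 headed the order at 54.3 ± 6.56 TPM (SD, n = 5), and the ranges separated only between KLF2 and KLF13 and between KLF4 and KLF11. KLF4 was at rank 5 of the 10 in every HCT116-WT culture and at rank 7 or 8 in the HCT116-CD276KO cultures. The 10 genes together made up 332.5 ± 55.4 TPM (SD, n = 5) in HCT116-WT and 279.5 ± 18.1 TPM in HCT116-CD276KO cultures, of which KLF4 was 9.07% ± 1.00 and 4.04% ± 0.643. Of the other KLF genes, KLF7 was the most abundant, with means of 4.94 and 5.22 TPM, above those of KLF9 and KLF11 in both groups. The rest were scarce. KLF12 and KLF15 were between 1 and 2 TPM on average, and KLF1, KLF8, KLF14, KLF17 and KLF18 were under 1 TPM in every culture.

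**Figure D1:**
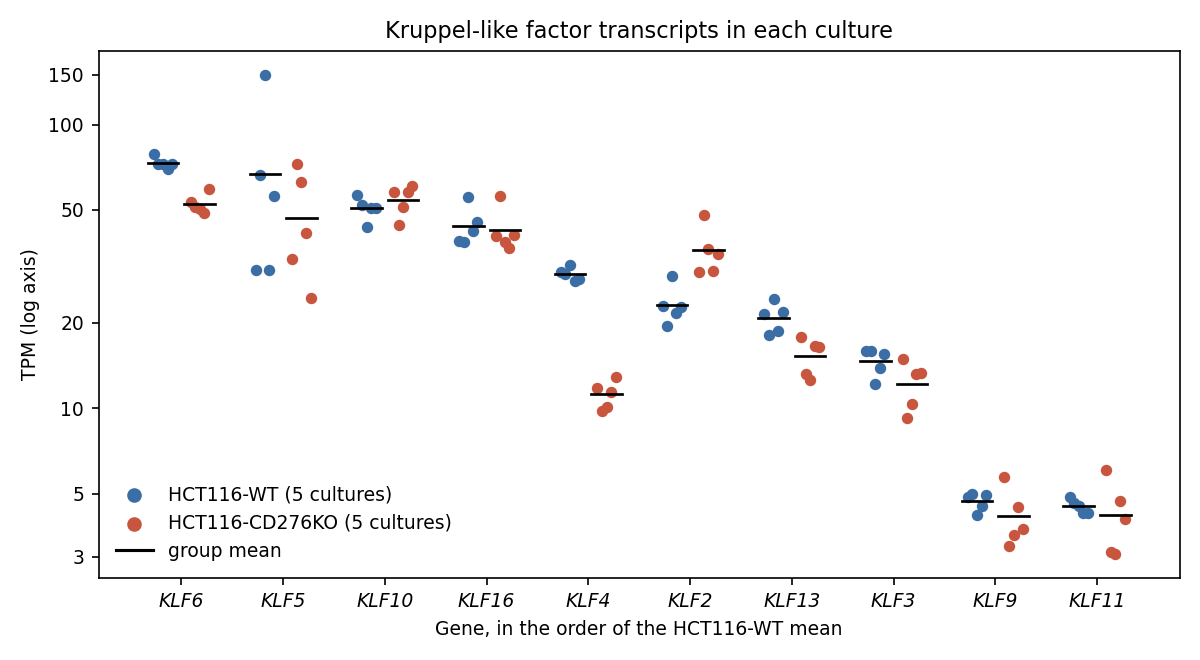
TPM on a log axis for the 10 Kruppel-like factor genes, in the order of the HCT116-WT mean, with 1 point per culture (blue, HCT116-WT; red, HCT116-CD276KO; 5 each) and a bar at each group mean. KLF4 and KLF2 separate the groups in opposite directions, while KLF5 spreads from 24.47 to 149.83 TPM with overlap between the groups.

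KLF4, which induces the cell cycle inhibitor CDKN1A and holds back proliferation in the gut epithelium, was the factor with the largest difference on the log2 scale. The gene (ENSG00000136826) lies on the minus strand of chromosome 9 of hg38 from 107484852 to 107490482. Its 5 HCT116-WT replicates, in order, had 30.21, 29.76, 31.92, 28.17 and 28.65 TPM, against the 5 HCT116-CD276KO replicates at 11.84, 9.82, 10.08, 11.44 and 12.91 TPM. The lowest HCT116-WT culture was above the highest HCT116-CD276KO culture by more than the whole range of either group. Group means stood at 29.7 ± 1.47 and 11.2 ± 1.28 TPM (SD, n = 5), and the mean in the clone was 37.7% of that in HCT116-WT. The log2 fold change of KLF4 on the log2(TPM + 1) scale, which understates changes of genes with low TPM, was -1.34 (standard error 0.08). All 10 factors were listed with this contrast known, so their differences are given as a description, with no p-value for a factor. In RNA from whole cultures, fewer cells with a transcript and less of it per cell cannot be told apart.

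KLF6, a broadly expressed factor that can also induce CDKN1A, was lower in the knockout clone. Levels in the 5 HCT116-WT replicates, in order, were 78.74, 72.34, 72.41, 69.6 and 72.67 TPM, against HCT116-CD276KO levels, in the same order, of 53.48, 51.24, 50.26, 48.98 and 59.25 TPM. The groups did not overlap, and both were tight. KLF6 had a log2 fold change of -0.47 (standard error 0.07) and means of 73.2 ± 3.37 and 52.6 ± 4.04 TPM (SD, n = 5). The fold change was smaller after median-of-ratios scaling (-0.37), quantile normalization (-0.38) and removal of length and GC trends from every library (-0.31). With the trends removed the groups still did not overlap. KLF6 and KLF4 were the factors with the smallest spread between HCT116-WT cultures relative to their level, at 4.60% and 4.94% of the mean.

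KLF2 was the only one of the 10 whose cultures were all higher in the knockout clone. Across the 5 HCT116-WT replicates, in order, it had 22.85, 19.55, 29.23, 21.62 and 22.81 TPM, against HCT116-CD276KO levels, in the same order, of 30.21, 48.02, 36.53, 30.4 and 34.96 TPM. The gap between the groups was narrow, from 29.23 in HCT116-WT replicate 3 to 30.21 in HCT116-CD276KO replicate 1. KLF2 had a log2 fold change of 0.60 (standard error 0.13) and means of 23.2 ± 3.62 and 36.0 ± 7.26 TPM (SD, n = 5). After removal of length and GC trends from every library, the gap widened and the log2 fold change was 0.68.

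KLF13, a repressor that recruits SIN3A, was at 21.45, 18.11, 24.2, 18.77 and 21.93 TPM in HCT116-WT replicates 1 to 5, and the 5 HCT116-CD276KO cultures, in order, had 17.79, 13.2, 12.57, 16.56 and 16.46 TPM. The groups came close but did not overlap, with 18.11 as the lowest HCT116-WT value and 17.79 as the highest HCT116-CD276KO value. The log2 fold change was -0.43 (standard error 0.11). After the length and GC correction it was -0.23 and the groups overlapped. HCT116-WT replicate 3 and HCT116-CD276KO replicates 2 and 3 followed GC content most or transcript length most negatively. Without these 3 libraries the log2 fold change of KLF13 was also -0.23, whereas KLF4 was at -1.21, KLF6 stayed lower and KLF2 was at 0.53.

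KLF5, which drives proliferation of crypt cells, differed far more between cultures than between the groups. It stood at 30.63, 66.64, 149.83, 30.8 and 56.19 TPM in HCT116-WT replicates 1 to 5, and the 5 HCT116-CD276KO cultures, in order, had 33.69, 72.66, 62.51, 41.38 and 24.47 TPM. The highest culture, HCT116-WT replicate 3, and the 2 lowest of that group lay on both sides of every HCT116-CD276KO culture but the lowest. KLF5 had a log2 fold change of -0.35 (standard error 0.42), and without HCT116-WT replicate 3 it was 0.00. The SD of log2(TPM + 1) was 0.93 in HCT116-WT and 0.63 in HCT116-CD276KO cultures, against medians of 0.146 and 0.177 over all genes tested. Among the 3009 protein-coding genes with a mean between 30 and 100 TPM, only 2 had a larger SD in HCT116-WT and 6 in HCT116-CD276KO cultures. Unlike the spread of most other factors, that of KLF5 did not shrink when the length and GC trends were removed, with SDs of 0.99 and 0.74 afterwards. GENCODE 44 lists 5 transcripts of KLF5 with lengths from 130 to 3349 bases. The table gives 1 TPM value per gene, so whether the cultures differed in the transcripts used was not tested.

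The other 5 factors had overlapping groups. KLF10 was at a median of 50.92 TPM (43.44 to 56.51) in HCT116-WT and 57.71 TPM (44.39 to 60.66) in HCT116-CD276KO cultures, with a log2 fold change of 0.09 (standard error 0.10), which was 0.19 after median-of-ratios scaling, quantile normalization or the length and GC correction. KLF3 was at a median of 15.53 TPM (12.2 to 15.89) and 13.21 TPM (9.24 to 14.98), with a log2 fold change of -0.26 (standard error 0.13), which was -0.09 after the length and GC correction. KLF16, like KLF13 a SIN3A-binding repressor, was at a median of 42.11 TPM (38.41 to 55.66) and 40.57 TPM (36.58 to 55.85). For KLF16 the difference of -0.06 changed sign after median-of-ratios scaling, quantile normalization and the length and GC correction. KLF9, a factor induced by glucocorticoid and thyroid hormone, was at 4.21 to 4.98 TPM in HCT116-WT and 3.27 to 5.74 TPM in HCT116-CD276KO cultures. KLF11 was at 4.26 to 4.89 TPM and 3.07 to 6.06 TPM. The log2 fold changes of KLF9 and KLF11 were -0.16 and -0.12, and both changed sign, to 0.02 and 0.03, after the length and GC correction. KLF11 varied most in the knockout clone relative to its level among these 5, with an SD of 29.7% of the mean there against 5.80% in HCT116-WT cultures.

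Across the 13581 genes tested, those averaging 1 TPM or more, limma with Benjamini-Hochberg adjustment was applied. In it 3 of the 10 factors had an adjusted p-value under 0.05, KLF4 and KLF6 on the lower and KLF2 on the higher side, where 4.87% of all genes tested did (4.09% lower and 0.781% higher). Only KLF4 was also past 2-fold, as were 0.486% of all genes. Groups did not overlap for 4 of the 10, against 7.61% of all genes, with 3 of them lower (6.19% of all genes) and 1 higher (1.42%). As the factors were listed with this contrast known, nothing is read from these counts. The median log2 fold change of the 10 factors was -0.21, beside -0.09 for all genes tested.

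**Figure D2:**
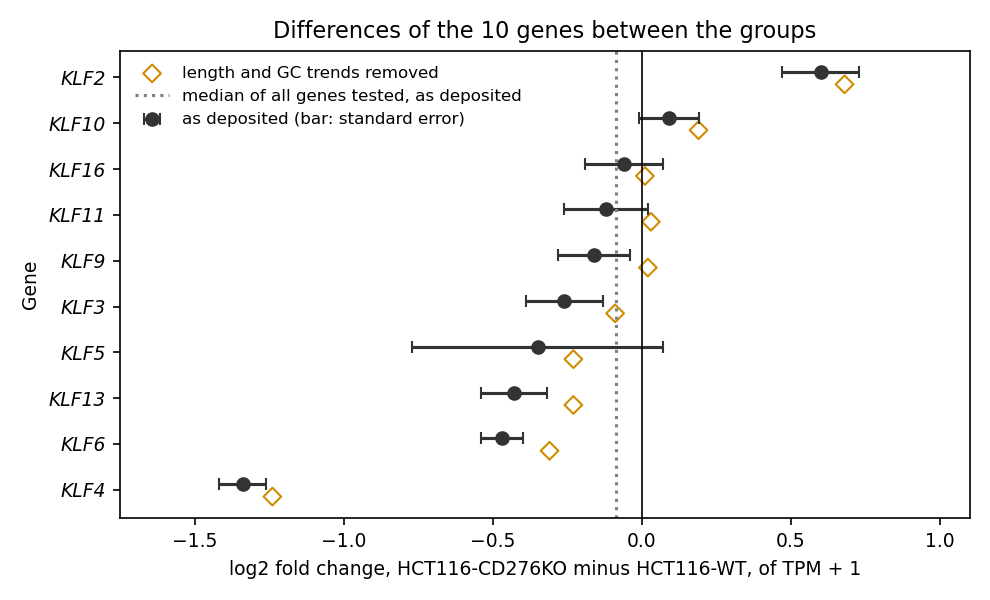
Log2 fold change of TPM + 1 between HCT116-CD276KO and HCT116-WT cultures (5 each) for the 10 genes, with standard errors, and the same after the length and GC trends of each library were removed (diamonds). KLF4 is at -1.34 and -1.24 and KLF2 at 0.60 and 0.68, while KLF9, KLF11 and KLF16 change sign and KLF5 has the widest error.

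Within the groups several factors varied together, over libraries whose composition they share. After subtraction of the group means, KLF3, KLF9, KLF10 and KLF11 had Pearson correlations between 0.60 and 0.92 with one another over the 10 cultures, and KLF2 and KLF16 one of 0.89. The correlations between the blocks were negative, down to -0.86 for KLF2 with KLF3. HCT116-WT replicate 3 and HCT116-CD276KO replicate 2, the libraries that followed GC content most, were the highest of their groups for KLF2, KLF16 and KLF5. HCT116-CD276KO replicate 1 was the highest of its group for KLF9, KLF11 and KLF3. The transcripts of KLF2 and KLF16 have 61.2% and 67.8% GC, and those of KLF3, KLF9, KLF10 and KLF11 between 41.1% and 47.1%. With the length and GC trends removed, the SD of log2 values between HCT116-WT cultures was 0.05 instead of 0.15 for KLF3 and 0.08 instead of 0.21 for KLF16, and several correlations were lower. That of KLF9 with KLF10 was -0.06 instead of 0.62, that of KLF10 with KLF11 0.21 instead of 0.60 and that of KLF3 with KLF10 0.47 instead of 0.90. Those of KLF9 with KLF11 and of KLF2 with KLF16 were 0.70 and 0.81, and that of KLF2 with KLF3 was -0.88. Other correlations became stronger with the trends removed. That of KLF2 with KLF6 was 0.95 instead of -0.01, and that of KLF3 with KLF6 was -0.86 instead of 0.40. KLF6 with KLF16 had 0.74 instead of -0.07.

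**Figure D3:**
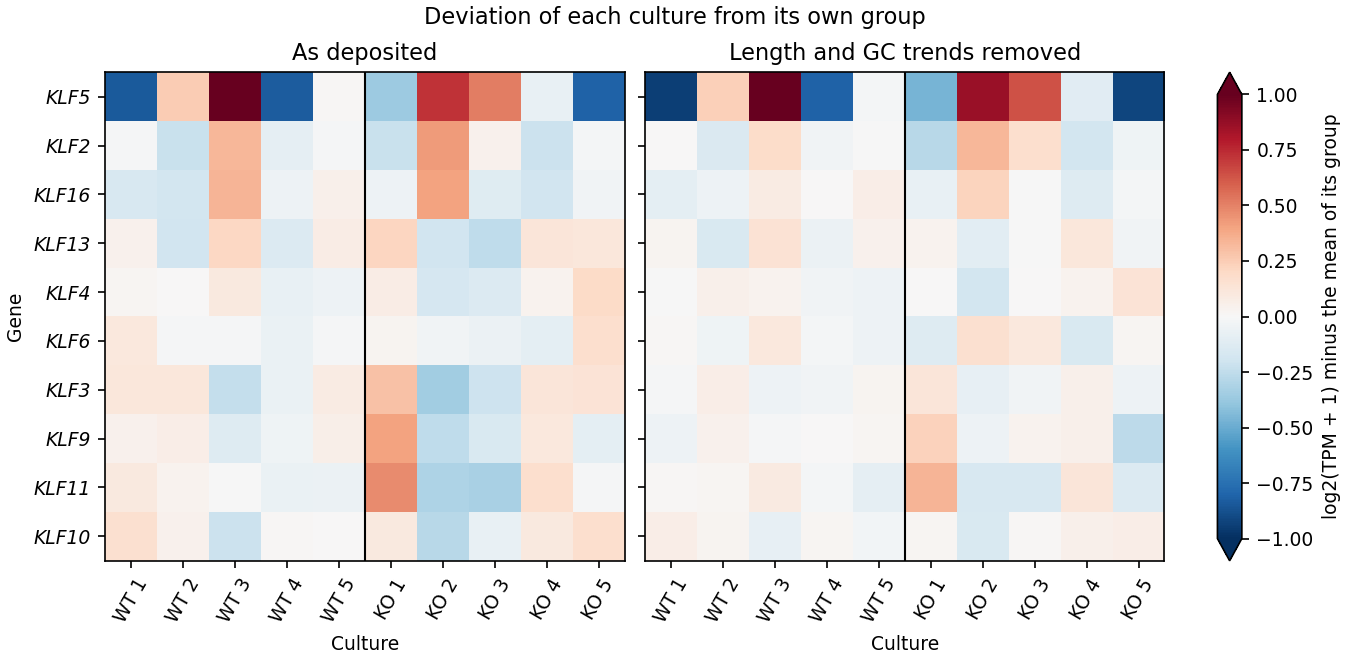
Deviation of log2(TPM + 1) from the mean of its own group for each gene (rows) and culture (columns; WT, HCT116-WT; KO, HCT116-CD276KO), as deposited and with length and GC trends removed; colours saturate at 1 in either direction. KLF5 keeps its spread, with SDs of 0.99 and 0.74 after the correction, whereas KLF3 and KLF16 become more even.

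The genes whose levels followed KLF4 most closely over the 10 cultures were HAS3, ENSG00000250920, CHPT1, VSNL1 and ICAM1, with Pearson correlations on the log2 scale between 0.989 and 0.996. As KLF4 was chosen for its difference between the groups, genes picked for following it over all cultures carry that difference too, and it is given without a test. HAS3, a hyaluronan synthase, was at 72.2 and 18.7 TPM on average in HCT116-WT and HCT116-CD276KO cultures, and ICAM1, an adhesion molecule for leukocytes, at 3.11 and 0.228 TPM. After the group means were removed, the closest genes were MTF1, RNF19B, ENSG00000262633, PRDM4 and PCDHAC2, with correlations between 0.944 and 0.956, and no gene was common to both sets. These were picked as the highest of 13581 genes over only 10 cultures, with the length and GC trends still in the values. Nothing is read from them, and no test was made. ENSG00000262633 was at only 1.24 and 2.01 TPM on average, and PCDHAC2 at 1.97 and 1.77 TPM. Among the factors themselves KLF6 had the highest correlation with KLF4 over the 10 cultures, 0.97, which was 0.64 within the groups and -0.33 within the groups once the length and GC trends were removed.

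Promoter windows, the 250 bases before the transcription start in the RefSeq annotation of GRCh38.p14, were read for 8 of the 10 factors, that is all except KLF3 and KLF10. They were searched on both strands for CACCC and for CGCCC, the core letters of the CACCC box and the GC box that Kruppel-like factors bind. The windows of KLF4, KLF13 and KLF2 are shown as examples of genes whose groups did not overlap, with every match in capitals. KLF6, whose groups did not overlap either, is not shown, and its window held 4 matches of CGCCC and 0 of CACCC. That window, chr10:3785210-3785459 on the minus strand, partly overlaps the span of the gene, which ends at 3785281. The windows shown lie at chr9:107489770-107490019 on the minus strand for KLF4, chr15:31326585-31326834 on the plus strand for KLF13 and chr19:16324576-16324825 on the plus strand for KLF2. The KLF4 window lies wholly inside the gene span of 107484852 to 107490482, so it is not upstream of the whole gene. Whether the windows overlap exons was not tested.
KLF4: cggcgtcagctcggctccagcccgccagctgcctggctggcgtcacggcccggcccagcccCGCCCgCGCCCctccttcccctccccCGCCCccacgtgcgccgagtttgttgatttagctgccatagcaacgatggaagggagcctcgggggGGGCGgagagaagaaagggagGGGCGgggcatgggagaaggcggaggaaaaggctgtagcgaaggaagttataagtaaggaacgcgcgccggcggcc
KLF13: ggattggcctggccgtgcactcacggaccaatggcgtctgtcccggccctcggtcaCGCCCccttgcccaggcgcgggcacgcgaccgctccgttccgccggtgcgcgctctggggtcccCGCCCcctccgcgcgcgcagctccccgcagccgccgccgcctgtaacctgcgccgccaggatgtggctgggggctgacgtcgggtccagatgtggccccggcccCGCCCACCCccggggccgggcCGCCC
KLF2: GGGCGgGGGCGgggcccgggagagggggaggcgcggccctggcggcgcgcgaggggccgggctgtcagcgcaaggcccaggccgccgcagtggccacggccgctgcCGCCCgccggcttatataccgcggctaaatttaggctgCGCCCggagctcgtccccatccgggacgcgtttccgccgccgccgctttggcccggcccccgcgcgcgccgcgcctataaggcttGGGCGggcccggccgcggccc
CGCCC was found 5 times for KLF4, 4 times for KLF13 and 5 times for KLF2, and CACCC once for KLF13, where it overlaps a CGCCC, and not for KLF4 or KLF2. The windows of the lower genes and of the higher gene thus held similar numbers of these letters. Of the 35116 promoter windows of the annotation, 54.8% hold CGCCC and 54.7% CACCC. The median window held 1 match of CGCCC, the 95th percentile was 7, and the median GC content was 58%. The windows of KLF4, KLF13 and KLF2 were richer in GC, at 69.2%, 78.8% and 80.0%. KLF16, whose groups overlapped, had the most, with 12 matches of CGCCC and 86.4% GC, and KLF9 had none of either with 32.4% GC.

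Other members of the family were compared next. Of 17 other KLF genes and SP genes, which encode the closest relatives with the same type of zinc fingers, 9 reached a mean of 1 TPM. By limma 0 of these passed an adjusted p-value of 0.05, and 1, SP6, had an unadjusted p-value below it, as did 21.9% of all genes tested. The log2 fold changes lay between -0.42 and 0.21, and their median was -0.06. SP1 was at 40.1 and 30.8 TPM on average (log2 fold change -0.42, limma adjusted p = 0.229), SP3 at 55.1 and 49.3 TPM (-0.17, adjusted p = 0.358) and SP2 at 14.8 and 12.7 TPM (-0.22, adjusted p = 0.259). SP1 was lowest in HCT116-CD276KO replicates 2 and 3, at 19.6 and 21.94 TPM, and between 33.42 and 40.95 TPM in the other 3 cultures of that group.

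Upstream regulators of the KLF genes formed another list. It held the MEK5, ERK5 and MEF2 pathway that induces KLF2 and KLF4, the TGF-beta receptors and SMAD proteins, and CDX, Notch, Wnt and further genes. Of 20 genes 19 were tested, limma put 0 past an adjusted p-value of 0.05, and 5 had an unadjusted p-value below it, a share near the 21.9% of all genes tested. These 5 were all lower in HCT116-CD276KO cultures. Their log2 fold changes were -0.26 for MAP2K5 (the MEK5 gene), -0.41 for MEF2C, -0.47 for MEF2D and -0.34 for both NOTCH1 and TGFBR2. For the whole list the median was -0.16, beside -0.09 for all genes tested. The most abundant genes of the list differed less. CTNNB1, the beta-catenin gene, was at 262 and 246 TPM on average (adjusted p = 0.477), SMAD2 at 81.1 and 72.7 TPM (adjusted p = 0.346) and SMAD4 at 64.9 and 57.4 TPM (adjusted p = 0.408). The number under the threshold was 3 without HCT116-CD276KO replicate 1.

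Of 15 cofactors and ubiquitin ligases of these factors, all were tested. Limma put 0 past an adjusted p-value of 0.05 and 3 had an unadjusted p-value below it (21.9% of all genes tested). The median log2 fold change of the list was -0.22, beside -0.09 for all genes tested. Those 3 were CTBP2, SIN3A and CREBBP, all lower in HCT116-CD276KO cultures, with log2 fold changes of -0.22, -0.34 and -0.49. The histone deacetylase genes HDAC1 and HDAC2 and the corepressor gene CTBP1 were the most abundant. HDAC1 was at 288 and 296 TPM on average (adjusted p = 0.825), HDAC2 at 217 and 215 TPM (adjusted p = 0.902) and CTBP1 at 149 and 145 TPM (adjusted p = 0.843).

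Genes known as targets of KLF4 fell in 2 cases. Of 14 listed, 11 were tested. By adjusted p-value 2 were lower and 0 higher in HCT116-CD276KO cells, where 4.09% and 0.781% of all genes tested were. An unadjusted limma p-value under 0.05 was found for 6 of the 11, against 21.9% of all genes tested. As the lists were chosen with earlier results of these data known, nothing is read from these counts. The median log2 fold change was -0.12, beside -0.09 for all genes tested. None of the target lists was split by whether the factor activates or represses a gene. Their medians therefore do not show whether the targets moved as a set. CDH1, the gene of the epithelial adhesion protein E-cadherin, which KLF4 can activate, stood at 47.9, 44.52, 43.25, 34.59 and 43.42 TPM in HCT116-WT replicates 1 to 5, and the 5 HCT116-CD276KO cultures, in order, had 29.2, 14.31, 16.56, 19.97 and 21.81 TPM. The groups did not overlap, and CDH1 fell by 1.07 on the log2 scale (standard error 0.16, limma adjusted p = 0.00311). KRT19, a keratin of simple epithelia, fell by 0.29 on the log2 scale, with 1267 ± 125 and 1034 ± 81.0 TPM (SD, n = 5) in the groups (limma adjusted p = 0.0486), and its adjusted p-value was above 0.05 when any library but HCT116-CD276KO replicate 2 was left out. Of the other epithelial markers present, EPCAM, KRT8 and KRT18 fell too, with log2 fold changes of -0.35, -0.42 and -0.39 (limma adjusted p = 0.0322, 0.00441 and 0.00263), while CDX2 was at 8.91 and 9.27 TPM (log2 fold change 0.07, limma adjusted p = 0.786). What these genes have to do with KLF4 was not tested. The most abundant cell cycle genes of the list did not pass with all 10 libraries. CDKN1A was at 243 and 223 TPM on average (log2 fold change -0.12, limma adjusted p = 0.407), CCND1 at 573 and 457 TPM (log2 fold change -0.34, adjusted p = 0.128) and CCNB1 at 477 and 486 TPM (adjusted p = 0.798). Without HCT116-CD276KO replicate 5 the log2 fold change of CCND1 was -0.43 (limma adjusted p = 0.047). It was -0.16 without HCT116-WT replicate 3 and HCT116-CD276KO replicates 2 and 3. ODC1, the first enzyme of polyamine synthesis, was at 439 and 486 TPM (adjusted p = 0.176).

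Of 9 known targets of KLF5, all were tested and 2 were lower by adjusted p-value, where 4.09% of all genes tested were. An unadjusted limma p-value under 0.05 was found for 5 of the 9, against 21.9% of all genes tested. Nothing is read from these counts either. The median log2 fold change was -0.21, beside -0.09 for all genes. FGFBP1, a carrier that releases fibroblast growth factors from the matrix, fell by 0.73 on the log2 scale (standard error 0.09, limma adjusted p = 0.000707), and its means were 4.44 ± 0.527 and 2.28 ± 0.0773 TPM (SD, n = 5). PDGFA, a growth factor gene, fell by 0.49 (standard error 0.09, limma adjusted p = 0.00895), and its means were 15.4 ± 1.36 and 10.7 ± 1.14 TPM. In both genes the groups did not overlap. EGFR, named after its values were seen, was at 26.9 and 15.9 TPM on average with a log2 fold change of -0.79, without passing the threshold (limma adjusted p = 0.0572). BIRC5, which encodes the apoptosis inhibitor survivin, was at 218 and 236 TPM (adjusted p = 0.282), and CCND1 and CCNB1 are on both lists. Of 14 known targets of KLF2, KLF6, KLF10 and KLF11, 9 were tested, limma put 0 past an adjusted p-value of 0.05 and 2 had an unadjusted p-value below it, near the 21.9% of all genes tested. The median log2 fold change was -0.18, and the most abundant, SMAD2, PLAU and MAOB, had adjusted p-values of 0.346, 0.497 and 0.0996.

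**Figure D4:**
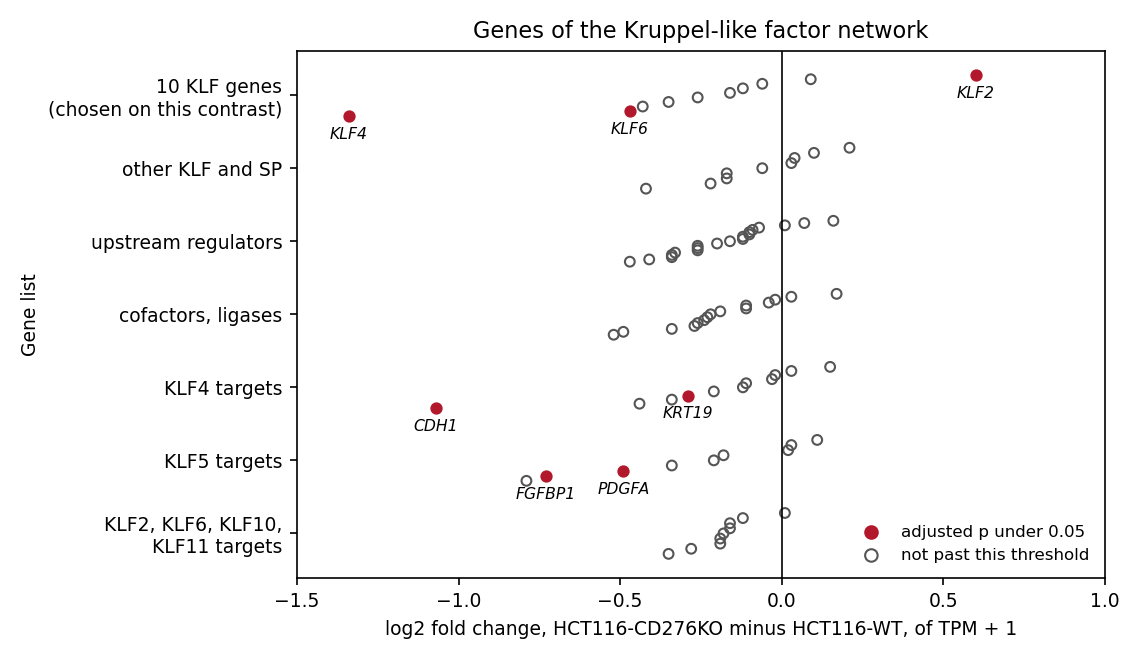
Log2 fold change of TPM + 1 between HCT116-CD276KO and HCT116-WT cultures (5 each) for every tested gene of each list, 1 point per gene, filled where the adjusted p-value over all genes was under 0.05. The 10 factors were chosen with this contrast known, and outside them CDH1, KRT19, FGFBP1 and PDGFA are the filled points.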

How the data were processed

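Polyadenylated RNA of 10 HCT116 cultures was sequenced from strand-specific libraries as single reads. Per the labels and the paper's methods, the authors mapped reads with STAR 2.5.2b to GRCh38 and quantified Ensembl genes with RSEM 1.3.0 and featureCounts 1.5.1. They deposited TPM values with 2 decimals, scaled to about 1000000 TPM per library, and which program gave these is not stated. The labels give an average of 40000000 reads per library, and the TPM values do not keep the reads per gene. Symbols were matched for 56947 of 58050 identifiers, with positions, transcript lengths and GC from GENCODE 44 on hg38.

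Genes averaging 1 TPM or more, 13581 in all, were fitted on log2(TPM + 1) in limma 3.58.1 (R 4.3.3), with a trended empirical Bayes variance and Benjamini-Hochberg adjustment over all of them. The authors' own test, limma/voom on counts, needs counts, which were not used here. Families, regulators and targets were listed from general knowledge. Of each list the text names genes with an adjusted p-value under 0.05 (up to 6) and the 3 most abundant others, plus CD276, all 10 factors and the 5 genes closest to KLF4. CDKN1A, KLF7, KLF12, KLF15, SP6, EGFR, CDK1, PTGES and the epithelial markers were named after their values were seen. So were the values of MAP2K5, MEF2C, MEF2D, NOTCH1, TGFBR2, CTBP2, SIN3A and CREBBP. Members and lists were chosen with earlier results of these data known. Alternatives were a pseudocount of 0.1, no filter, a mean of at least 5 TPM, median-of-ratios scaling, quantile normalization, robust variance, the replicate number as a block, each library left out, ratios without a pseudocount, and removal of length and GC trends by local regression (span 0.3, 13472 genes). The fit without 3 libraries was chosen after seeing the data. The fits were tested on simulated data with independent noise for each gene and library. In the main fit 92 of 100 genes shifted by 1 on the log2 scale and 96 of 100 shifted by 2 were recovered, with 10 false calls. The simulated libraries had no length or GC trends, so they cannot show how the fits handle those of the real libraries. The labels call the cultures biological replicates and name separate flasks for the wild type and the knockout, not for each replicate, so p-values measure only the spread between these samples, which may be technical. Python 3.11.15 with numpy 2.4.6, pandas 2.3.3 and matplotlib 3.10.9 made the tables and plots.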

Additional observations from a re-analysis of the deposited data

Results flagged for a closer look

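In 2 of 60 groups of 5 values, over the factors and the named genes, 1 culture lay far from the rest, with a gap to its nearest neighbour of over 0.71 of the range. Chance gives this in about 1 of 20 groups. KLF16 stood at 55.85 TPM in HCT116-CD276KO replicate 2, with a gap of 0.779 of the range, and KRT19 at 1481.35 TPM in HCT116-WT replicate 3, with a gap of 0.737. Both cultures are the ones whose values followed GC content most in their group, and its part in these values was not tested.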

How the results depend on the processing

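The fit without HCT116-WT replicate 3 and HCT116-CD276KO replicates 2 and 3 was chosen after seeing the data. Past the adjusted p-value of 0.05 were 662 genes (556 lower and 106 higher), with 378 under the replicate block, 1287 with length and GC trends removed (757 lower and 530 higher) and 343 to 857 with each library left out. It was 345, 376, 421 and 343 without HCT116-WT replicates 1, 2, 4 and 5, and 407 and 375 without HCT116-CD276KO replicates 3 and 4. The split was 386 lower and 197 higher after median-of-ratios scaling and 385 and 253 after quantile normalization. Replicate numbers did not pair the cultures: deviations of same-numbered cultures correlated at -0.181 to 0.119, and only replicate 5 correlated best with its own number. Of the 10 factors 3 passed, and 2 to 4 with a library left out. After the length and GC correction 5 passed, with KLF10 and KLF13 added, where 1287 of the 13472 genes tested passed too. With a pseudocount of 0.1, a mean of at least 5 TPM or robust variance 4 passed, with KLF13 added. The same was seen without HCT116-CD276KO replicate 1. KLF2 left this count, which is a description, without HCT116-WT replicates 1, 2, 4 or 5 or HCT116-CD276KO replicate 3, under the block and without a filter, while its log2 fold change stayed between 0.50 and 0.70. KLF4 stayed between -1.41 and -1.21 and KLF6 between -0.51 and -0.31. Among upstream regulators 0 passed, with 2 after the correction and 0 to 3 with a library left out (1 without HCT116-WT replicate 3, 3 without HCT116-CD276KO replicate 1), and among cofactors 0, with 0 to 1 (1 without HCT116-CD276KO replicate 5). Of the KLF4 targets 2 passed, with 1 without a filter, after median-of-ratios scaling and under the block, and 1 to 2 with a library left out, since KRT19 lost its call (adjusted p from 0.0573 up to 0.263 in those fits). Of the KLF5 targets 2 passed, with 1 at a mean of at least 5 TPM, where FGFBP1 is not tested, 1 after quantile normalization, where PDGFA had an adjusted p of 0.0694, and 2 to 4 with a library left out (4 without HCT116-CD276KO replicate 5, CCND1 among them). CDH1 fell in every fit. Differences near 0 changed sign without passing. After the correction SP3 was at 0.04, CTNNB1 0.03, SMAD2 0.10, SMAD4 0.02, HDAC2 0.18 and CTBP1 0.03. After median-of-ratios scaling CTNNB1 was at 0.00, HDAC2 at 0.08 and CTBP1 at 0.06, and after quantile normalization HDAC2 at 0.03 and CTBP1 at 0.01. Without the 3 libraries HDAC2 was at 0.00, CTBP1 at 0.02, CCNB1 at -0.01 and PLAU at 0.06. With each library left out HDAC1 ran from -0.01 to 0.09, HDAC2 from -0.07 to 0.01, CTBP1 from -0.10 to 0.03 and CCNB1 from -0.01 to 0.06. Where no reason is given, the cause was not tested.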

Other observations

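The wide spread of KLF5 was not shared by the target that differed most clearly between the groups. In HCT116-WT replicate 3, where KLF5 was at 149.83 TPM, FGFBP1 was at 4.27 TPM, within the 3.82 to 5.01 TPM of its group. In HCT116-CD276KO cultures FGFBP1 stayed between 2.15 and 2.33 TPM while KLF5 ran from 24.47 to 72.66 TPM. PDGFA, CCND1, BIRC5 and PTGES were each highest of their group in HCT116-WT replicate 3, at 17.3, 627.65, 236.9 and 14.28 TPM. In HCT116-CD276KO replicate 2, where KLF5 was highest, PDGFA, BIRC5 and PTGES were near or at the top of theirs, at 11.69, 255.14 and 12.13 TPM. CCND1 was there at 436.02 TPM, below its group mean of 457 TPM. Other listed targets lay the other way, with CCNB1 at 433.06 TPM and CDK1 at 163.06 TPM lowest of their group in HCT116-WT replicate 3, and EGFR at 8.77 TPM and CDK1 at 179.49 TPM lowest of theirs in HCT116-CD276KO replicate 2. These 2 libraries are also the ones that followed GC content most, and its part was not tested. These genes were picked after the values were seen, and no test was made.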
